A study of Mus musculus with 13 samples.

Results

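The cytosolic ribosome is built from ribosomal RNA and a set of small proteins, each encoded by its own gene. The genes described here are the protein-coding mouse genes whose symbol begins with Rpl or Rps followed by a digit, together with Rplp0, Rplp1, Rplp2 and Rpsa, without the S6 kinases and without processed copies. The rule found 86 genes among the 48709 gene rows of the count tables, 52 named for the large subunit and 34 for the small subunit. Of these, 77 encode standard subunits of the ribosome. The other members are the paralogs Rpl3l, Rpl7l1, Rpl10l, Rpl22l1, Rpl36al, Rpl39l, Rps27l and Rps27rt, and Rps19bp1, which encodes a binding partner of a ribosomal protein and meets the rule by its name alone. The rule leaves out genes with other names, such as Fau and Rack1, which also encode ribosomal proteins.

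Motoneurons were cut by laser from cresyl violet-stained lumbar spinal cord of mice carrying the human SOD1 transgene with the G93A mutation, a model of amyotrophic lateral sclerosis. All mice were 65 days old, and each library came from a pool of 500 motoneurons of 1 mouse, whose cord had been frozen inside its vertebrae. The small RNA input was amplified with the SMARTer Ultra Low kit and made into libraries with Nextera XT. The AAV-miR SOD1 group (4 libraries) received, into the cerebral ventricles at postnatal day 2, an adeno-associated virus that expresses in astrocytes an artificial microRNA against human SOD1. The AAV-miR ctrl group (5 libraries) received the control vector in the same way, and the third group was made of non-injected littermates (4 libraries). Every group carried the mutant transgene, so the series has no healthy reference, and the microRNA was driven in astrocytes while the RNA was taken from motoneurons. The design asks whether lowering mutant SOD1 in astrocytes changes the transcripts of motoneurons.

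Ribosomal proteins are made in matched amounts, and cells tie their output to growth. Their mRNAs usually begin with a terminal oligopyrimidine tract, a run of C and T at the very 5′ end, through which mTORC1 signalling sets their translation. In neurons these mRNAs are also found in axons and dendrites, and several of the genes, among them Rplp0, Rpl13a and Rps18, are widely used as references for normalization.

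The libraries held 13897189 to 37414222 gene counts. The 4 libraries numbered 5 or 6 in their titles were the deepest, at 29682646 or more, and all of them were controls: 2 of the AAV-miR ctrl group and 2 of the non-injected group. The labels do not say what the number stands for. In 2 tables the column header names another group than the title does (both of replicate 3, one injected with the control vector and one not injected). The titles were followed, and values with these libraries exchanged stand beside the results. All 9 motoneuron markers were present in every library, with a summed level of 5023 to 17247 counts-per-million (CPM), but markers of other tissues were abundant too. The 8 erythroid markers summed to 3584 to 47646 CPM and the 9 neutrophil granule markers to 10224 to 78805 CPM. In a pooled capture, fewer cells of a type and less RNA per cell cannot be told apart.

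The terminal oligopyrimidine tract is shown first because it is the feature these mRNAs share by textbook description. It was searched as a C at the annotated RefSeq start followed by at least 4 further C or T bases, on the coding strand, in the GRCm38.p6 promoter table. Of the 66 members with an entry, 14 had the tract, 7 of 40 large-subunit genes and 7 of 26 small-subunit genes. That is 21.2% of the members in the table against 3.01% of all 27025 genes in it. Below are 6 members with the tract and 2 without it, with 10 bases before the start and 20 from it, and the tract in capitals.
Rpl15, chr14:18270967-18270996, minus strand: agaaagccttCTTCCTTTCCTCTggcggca
Rpl35, chr2:39005112-39005141, minus strand: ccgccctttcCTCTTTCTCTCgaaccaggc
Rpl38, chr11:114668570-114668599, plus strand: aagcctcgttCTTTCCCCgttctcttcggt
Rps10, chr17:27635225-27635254, minus strand: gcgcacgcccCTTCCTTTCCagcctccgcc
Rps18, chr17:33955646-33955675, minus strand: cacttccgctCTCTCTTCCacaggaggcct
Rps6, chr4:86857348-86857377, minus strand: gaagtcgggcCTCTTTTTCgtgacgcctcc
Rplp0, chr5:115559457-115559486, plus strand: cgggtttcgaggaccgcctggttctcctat
Rps9, chr7:3704031-3704060, plus strand: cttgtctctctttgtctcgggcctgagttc
In Rps9 the table's window holds pyrimidine runs just before the annotated base. A start annotated a few bases away from the one used by the cell hides a tract from this search, so a window without a match says only that the letters are not at that position.

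The members resemble one another and their many processed pseudogenes, and this bears on what the tables can count. Each member's main transcript in GENCODE was cut into all its 50-base windows, and the share of windows found in no other annotated gene was taken. The median was 50.7% over the 86 members, 42 members lay under 50%, and 82 shared at least 1 window with an annotated pseudogene. The extremes were Rps27, a zinc-finger protein of the small subunit, with 1.35% unique windows, and members with 100%, such as Rpl3l, Rpl39l and Rps19bp1. Reads that align to several places are tallied in a separate row of each table, with values of 15343727 to 33826137, and are in no gene's count. Whether that row holds such a read once or once per alignment was not tested.

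The Rps27 family shows the range of likeness. Rps27 (chr3:90212522-90213651) and Rps27rt (chr9:114982366-114982739) have the same coding sequence over all 252 bases, while Rps27l (chr9:66946086-66949516), known as a target of p53, is identical to Rps27 at 76.2% of them. Rpl39l (chr16:10170226-10174911), a paralog best known from testis, shares 85.0% of its 153 coding bases with Rpl39 on the X chromosome. The first 60 coding bases are given with capitals where a paralog differs from its partner.
Rps27: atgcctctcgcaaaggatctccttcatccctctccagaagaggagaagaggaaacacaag
Rps27rt: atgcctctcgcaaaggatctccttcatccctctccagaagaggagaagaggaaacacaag
Rps27l: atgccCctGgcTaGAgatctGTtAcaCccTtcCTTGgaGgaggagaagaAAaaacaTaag
Rpl39: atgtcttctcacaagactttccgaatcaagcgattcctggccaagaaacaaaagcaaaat
Rpl39l: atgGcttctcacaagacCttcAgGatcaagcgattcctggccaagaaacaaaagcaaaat
Measured per kilobase of transcript, Rps27l averaged 422 CPM, Rps27 10.3 CPM and Rps27rt 2.33 CPM. 

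Across the set, levels differed between classes of unique share without a steady order. The 21 members with fewer than 25% unique windows had a median of 8.05 CPM per kilobase, the 21 between 25 and 50% had 30.5, the 28 between 50 and 75% had 86.9 and the 15 at or above 75% had 51.0. Spearman's correlation between the unique share and the level per kilobase was 0.51 over the 85 members that passed the filter on low counts, which share libraries and depth. Standard subunits at or above 75% still differed in level, with 151 CPM per kilobase for Rpl39 and 443 for Rpl8. Rps15a had 15.2, but its main transcript was 5179 bases long, against 1020 for Rpl8. A long annotated transcript lowers the level per kilobase and also enters the unique share and the class medians. Which transcript was expressed was not tested. The part of unplaced reads in the levels of the members was not tested.

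**Figure D1:**
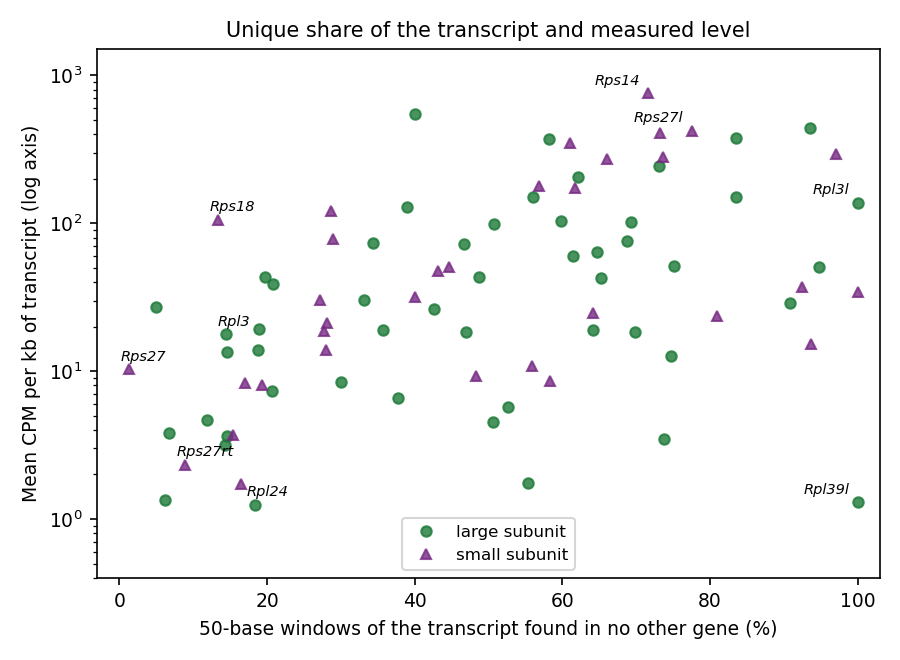
Mean level per kilobase of transcript over 13 libraries (CPM, log axis) against the share of 50-base transcript windows found in no other gene (%), for the tested ribosomal protein genes reported here, circles for the large and triangles for the small subunit. Members with few unique windows tend to lie low, as Rps27 and Rps27rt do but Rps18 does not, while Rpl39l at 100% is also among the lowest.

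Per kilobase, high levels were those of Rps14, a protein of the small subunit's platform, at 757 CPM, and of Rplp1, a protein of the stalk that binds elongation factors, at 546 CPM. Rpl8 had 443, Rps27l 422 and Rps9 407 CPM per kilobase. The 10 highest members carried 53.9% of the summed level per kilobase, 24 members exceeded 100 CPM per kilobase and 21 lay under 10. Rps14 was the highest member in each of the 3 groups. Rpl8, Rps27l and Rps9, by contrast, changed places between groups. The lowest tested members were Rpl24 at 1.25, Rpl39l at 1.30 and Rpl5 at 1.35 CPM per kilobase, Rpl24 and Rpl5 with only 18.3% and 6.16% unique windows. Rpl10l, a retrogene copy of Rpl10 active in testis, had at most 1 count in any library and was the single member left out of the tests.

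Together the members took 0.386 to 1.07% of the gene counts of a library. In the AAV-miR SOD1 group the share was 0.990, 1.07, 0.881 and 0.929% in replicates 1 to 4. In the AAV-miR ctrl group it was 1.02, 0.771, 0.719, 0.455 and 0.481% in replicates 1, 3, 4, 5 and 6. In the non-injected group it was 0.927, 0.694, 0.508 and 0.386% in replicates 2, 3, 5 and 6. The AAV-miR SOD1 libraries lay close together, while each control group ran from a level as high as theirs down to less than that of any AAV-miR SOD1 library. Within each control group the 2 libraries numbered 5 and 6 were the lowest.

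After scaling by trimmed means (TMM), AAV-miR SOD1 libraries had a summed level of 9449 ± 212 CPM (SD, n = 4). AAV-miR ctrl libraries had 6948 ± 2226 CPM (SD, n = 5), and those without injection had 6418 ± 2606 CPM (SD, n = 4). The spread of single genes followed the same order. The median SD of a member's log2 CPM was 0.14 in the AAV-miR SOD1 group, 0.40 in the AAV-miR ctrl group and 0.57 in the non-injected group, where the medians over all genes tested were 0.45, 0.50 and 0.52. Ribosomal protein genes varied less than the typical gene in the treated and AAV-miR ctrl groups and as much as the typical gene or more in the non-injected group. The genes compared were not matched for level. Only the control groups mix libraries numbered 1 to 4 with libraries numbered 5 or 6. The SD of the summed level was 1272 CPM in the 5 controls numbered 1 to 4 and 324 CPM in the 4 numbered 5 or 6.

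**Figure D2:**
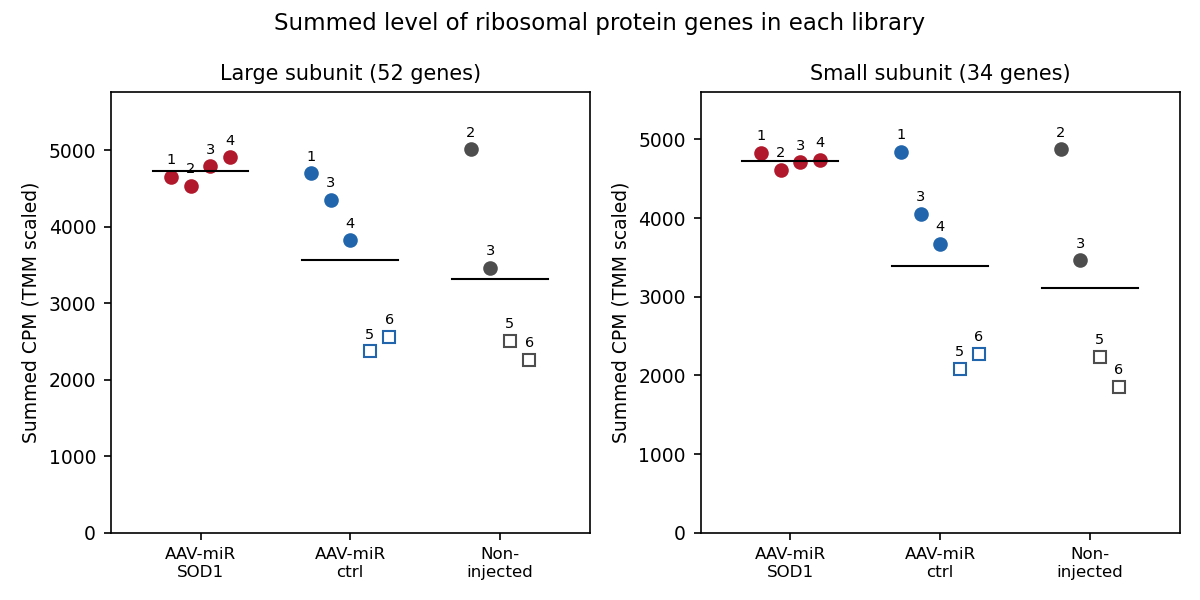
Summed TMM-scaled CPM of the large-subunit genes (left) and small-subunit genes (right) in each library, by group, with the replicate number of the title above each point and a bar at the group mean. Filled circles are libraries numbered 1 to 4 and open squares libraries numbered 5 or 6, which are the lowest of both control groups.

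AAV-miR SOD1 was first compared with AAV-miR ctrl. Both groups received a vector, but only the control group has libraries numbered 5 or 6. The members lay higher in the AAV-miR SOD1 group on balance, but none passed the threshold: 73 of the 85 tested had a positive log2 fold change, with a median of 0.34 against -0.04 for all 17403 genes tested. The median was 0.28 for the large and 0.49 for the small subunit. With edgeR's quasi-likelihood test and adjustment over all genes, 0 members were called at 0.05 (0% of all genes), and the smallest adjusted p was 0.277 (Rpl39l). Without adjustment, 2 members had a p under 0.05, Rpl39l and Rps7, both higher, where 5.99% of all genes were higher, 8.54% lower and 14.5% either. DESeq2 called 0 members after adjustment, with 1.2% of all genes called, and 6 before it, with 16.7% of all genes (7.49% higher). In 4 members every AAV-miR SOD1 library lay above every AAV-miR ctrl library (Rpl39, Rplp1, Rps2 and Rps12), a pattern that 1.27% of all genes showed, and in 0 members below (2.46% of all genes).

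Restricting the same comparison to libraries numbered 1 to 4 lowered the median log2 fold change of the members from 0.34 to 0.14, and 0 members had an unadjusted p under 0.05 (4.88% of all genes). With the 2 libraries of contradictory header exchanged, the median was 0.41 and 7 members had an unadjusted p under 0.05, 6 of them higher, where 19.9% of all genes did (7.64% higher). Leaving out AAV-miR ctrl replicate 1, the highest control of this group, gave 17 such members, all higher, and also raised the share of all genes, to 23.2% (11.6% higher).

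Against the non-injected group, 70 of 85 members lay higher in the AAV-miR SOD1 group, with a median log2 fold change of 0.44 against -0.09 for all genes. It was 0.36 for the large and 0.59 for the small subunit. None passed after adjustment in edgeR's quasi-likelihood test (0% of all genes called), with a smallest adjusted p of 0.147, again that of Rpl39l. Before adjustment 11 members had a p under 0.05, all higher: Rpl4, Rpl13, Rpl18, Rpl22 and Rpl39l of the large subunit and Rps2, Rps7, Rps9, Rps10, Rps15a and Rps19 of the small one. They make up 12.9% of the members, and 9.36% of all genes were higher by the same rule (20.9% in either direction). DESeq2 called 0 members after adjustment, with 7.16% of all genes called, and 18 before it, all higher, with 23.1% of all genes (11.6% higher). In 9 members every AAV-miR SOD1 library lay above every non-injected one (5.9% of all genes), and in 0 below (5.81%).

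Non-injected replicate 2 weighed most here. Its members summed to 9882 CPM, the highest of all 13 libraries, and without it 47 members had an unadjusted p under 0.05, all higher, where 23.3% of all genes did (12.3% higher). The median log2 fold change was then 0.68, and it was 0.28 without non-injected replicate 6. Among the libraries numbered 1 to 4 the median log2 fold change fell to 0.12, with 0 members at an unadjusted p under 0.05 (15.7% of all genes). With the header exchange it was 0.40, with 4 such members (14.8% of all genes).

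Set against both control groups at once, the AAV-miR SOD1 libraries gave a median log2 fold change of 0.39 over the members and -0.06 over all genes, with 72 of 85 members higher. These 9 controls are the same libraries as in the comparisons above. None passed after adjustment with edgeR's quasi-likelihood test (0% of all genes), where Rpl39l had an adjusted p of 0.0972. Before adjustment 15 members had a p under 0.05, all higher, 5 of the large and 10 of the small subunit, which is 17.6% of members against 10.2% of all genes in that direction and 22.2% in either. Rpl39 was the single member in which all 4 AAV-miR SOD1 libraries lay above all 9 controls (0.592% of all genes), and in 0 did they lie below (1.23%). In the libraries numbered 1 to 4, the median was 0.12 and 1 member, Rpl39l, had an unadjusted p under 0.05 (14.2% of all genes). limma-voom with sample weights, which gives less weight to libraries that vary more, called 7 members after adjustment, all higher (Rpl4, Rpl13, Rpl22, Rps7, Rps10, Rps15a and Rps28), with adjusted p between 0.0415 and 0.0484. It called 8.4% of all genes. DESeq2 called 0 members there, with 10.4% of all genes called.

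Between AAV-miR ctrl and the non-injected group, which tests the vector and the injection, the median log2 fold change was 0.08 over the members and -0.01 over all genes, and 0.08 for each subunit. Of the 85 members, 0 were called after adjustment with edgeR's quasi-likelihood test (0% of all genes) and 0 had an unadjusted p under 0.05 (3.61% of all genes, 1.38% higher and 2.24% lower). DESeq2 called 0 members by either measure, with 0.0115% of all genes called after adjustment. The median was -0.03 in the libraries numbered 1 to 4 and 0.07 with the header exchange.

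**Figure D3:**
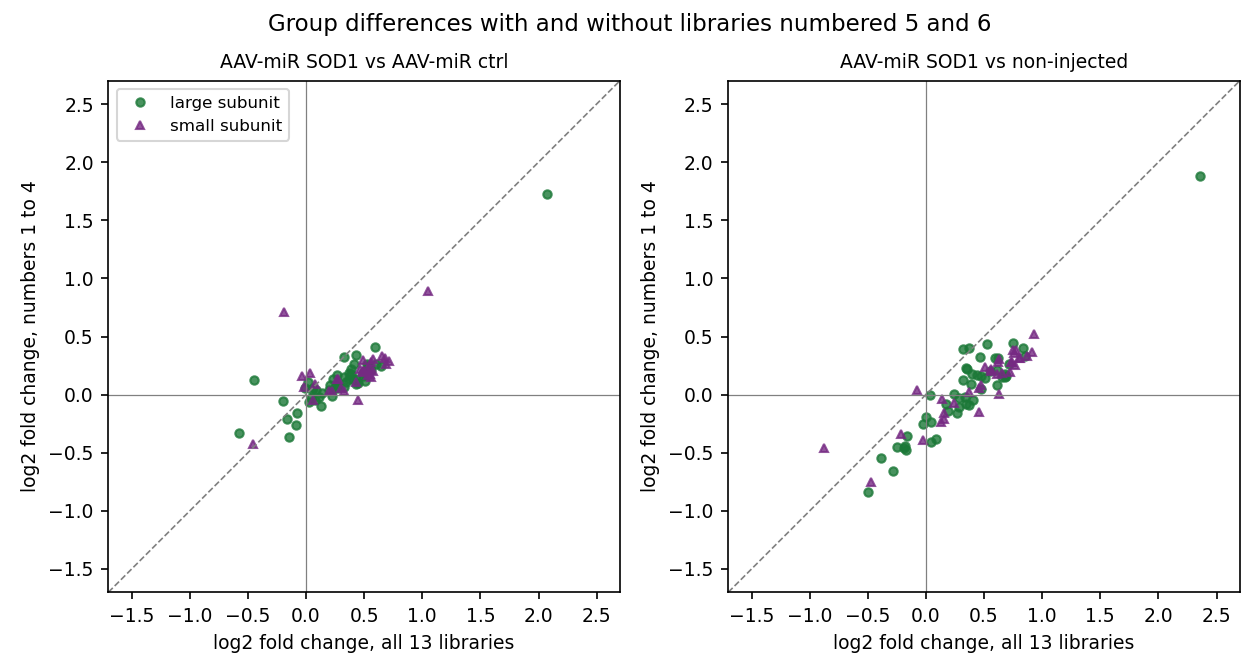
Log2 fold change of each tested member in the fit on all 13 libraries (x) and on the 9 libraries numbered 1 to 4 (y), for AAV-miR SOD1 against AAV-miR ctrl (left) and against the non-injected group (right); the dashed line marks equal values. Most members lie below the line, with medians of 0.34 against 0.14 on the left and 0.44 against 0.12 on the right.

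The larger contrast lay within the controls. In scaled CPM, the members lay lower in the libraries numbered 5 or 6 than in the 5 controls numbered 1 to 4. Of 85 members, 80 had a lower mean, with a median log2 difference of -0.74 where the median of all genes was 0.03. It was -0.63 for the large and -0.88 for the small subunit. In 54 members all 4 libraries numbered 5 or 6 lay below all 5 controls numbered 1 to 4, a pattern shown by 3.83% of all genes, and in none did they lie above (3.26% of all genes). In 52 of them they also lay below the AAV-miR SOD1 libraries, as 2.3% of all genes did. The split was taken up because earlier results of these data had shown it, so the values are a description and carry no test.

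These 4 libraries come from both control groups and none from the AAV-miR SOD1 group, so what the numbers 5 and 6 stand for and the treatment cannot be told apart in fits on all 13 libraries. They also had 29682646 gene counts or more, where the other 9 had at most 23101349. Divided by the gene counts, their row for reads aligned to several places gave 0.797 to 0.962, below the 1.10 to 1.48 of the other 9. The part of these differences in the members' levels was not tested. Short transcripts differed as well. Other protein-coding genes with main transcripts of up to 500 bases had a median log2 difference of -0.56 between the numbers (72 genes), those of 500 to 1000 bases -0.22 (808 genes), and those of 1000 to 2000 bases 0.10 (3147 genes). Members stood at -0.68, -0.80 and -0.63 in the same classes (12, 42 and 25 genes). The 5 members annotated at 2000 to 5000 bases stood at -0.74, where other genes annotated at that length stood at 0.11. These lengths are those of the main annotated transcript, such as 2989 bases for Rpl18. Whether the members expressed a transcript of that length was not tested.

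Members with few unique windows showed less of the difference. Its median was -0.39 under 25% unique windows, -0.77 from 25 to 50%, -0.80 from 50 to 75% and -0.89 above. The log2 fold change of AAV-miR SOD1 over AAV-miR ctrl followed the same order, with medians of 0.06, 0.32, 0.39 and 0.49. AAV-miR ctrl replicates 5 and 6 enter both measures, so the shared order is partly built in. Median counts of a member per library also rose over these classes, from 97.6 to 576, 1607 and 2294.

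**Figure D4:**
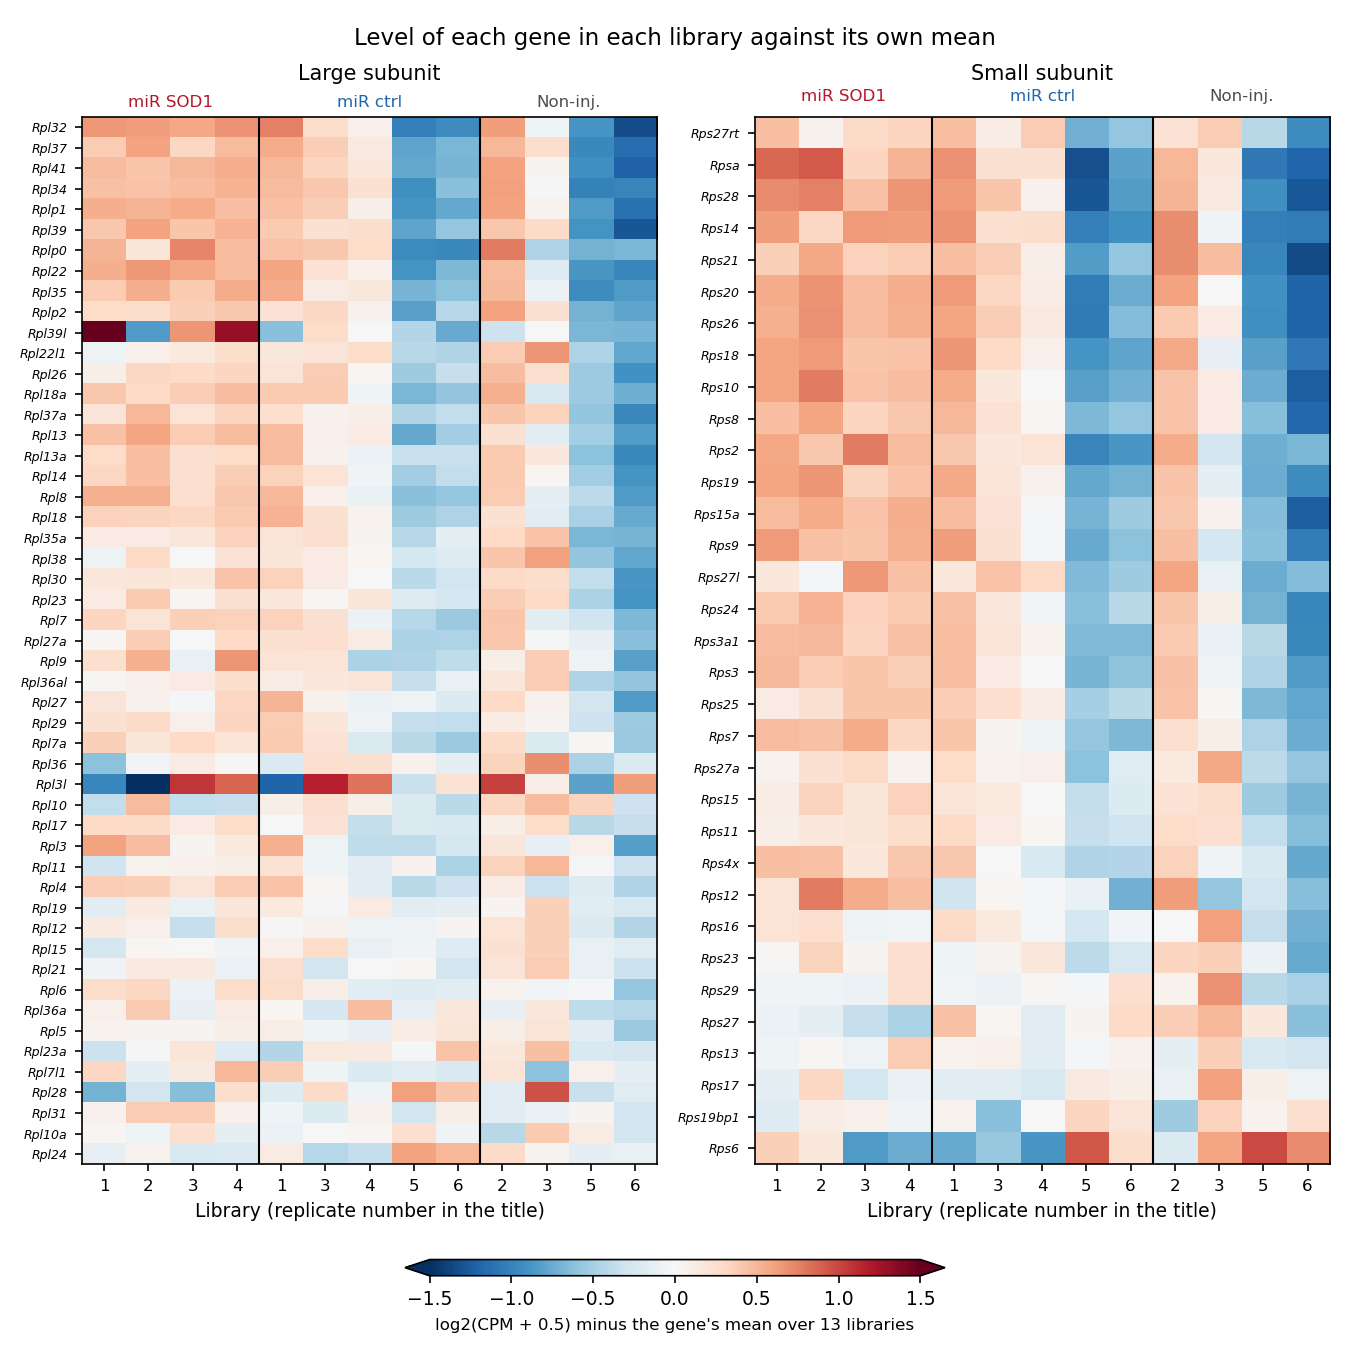
Log2(CPM + 0.5) of the tested members reported here in each library minus the gene's mean over 13 libraries (colour), with large-subunit genes left and small-subunit genes right, ordered by the difference between controls numbered 5 or 6 and controls numbered 1 to 4. Columns numbered 5 and 6 are the lowest for most rows. Rpl3l and Rpl39l vary by library, and Rps6 has the largest of the positive differences, which 5 of the 85 tested members have.

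Among proteins of the stalk and the large subunit, Rplp0 anchors the stalk and is a common reference gene. It measured 653, 522, 763 and 638 CPM in AAV-miR SOD1 replicates 1 to 4, and 619, 612, 557, 238 and 235 CPM in AAV-miR ctrl replicates 1, 3, 4, 5 and 6. In non-injected replicates 2, 3, 5 and 6 it measured 789, 334, 282 and 287 CPM. The highest value was a non-injected one, the groups overlapped, and the fold changes of 0.51 ± 0.38 (SE) and 0.61 ± 0.40 (log2) had edgeR adjusted p of 0.552 and 0.408.

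Rplp1, its partner in the stalk, was tighter in the treated group. Its levels were 365, 358, 369 and 342 CPM with AAV-miR SOD1, 340, 325, 267, 135 and 147 CPM with AAV-miR ctrl and 382, 259, 139 and 115 CPM without injection. All treated libraries lay above all AAV-miR ctrl libraries, with 342 and 340 CPM as the nearest pair, and below non-injected replicate 2. The log2 fold change over AAV-miR ctrl was 0.56 ± 0.36 (SE) in all libraries (edgeR adjusted p = 0.481) and 0.21 in the libraries numbered 1 to 4.

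Rpl4, an abundant protein that reaches into the exit tunnel, had 730, 723, 644 and 737 CPM with AAV-miR SOD1. It had 757, 572, 505, 425 and 454 CPM with AAV-miR ctrl and 607, 451, 493 and 413 CPM without injection. The treated libraries lay above all non-injected ones but not above AAV-miR ctrl replicate 1. The number of the library mattered less than for most members, with a log2 difference of -0.36 between the controls numbered 5 or 6 and those numbered 1 to 4, and the log2 fold change over the non-injected group was 0.53 ± 0.22 (SE, edgeR adjusted p = 0.198) in all libraries and 0.44 within numbers 1 to 4.

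Rpl13 was the standard subunit with the smallest p against the non-injected group. It measured 43.8, 48.5, 41.8 and 44.9 CPM with AAV-miR SOD1, 44.7, 33.9, 35.1, 18.6 and 22.1 CPM with AAV-miR ctrl and 37.8, 28.8, 22.3 and 17.8 CPM without injection. All treated libraries exceeded all non-injected ones, with a log2 fold change of 0.75 ± 0.28 (SE, edgeR adjusted p = 0.169), and 0.45 within numbers 1 to 4. Rpl13a, a subunit also known for silencing inflammatory transcripts once released from the ribosome, had log2 fold changes of 0.33 ± 0.27 and 0.48 ± 0.29 (SE) over the 2 control groups and 0.15 and 0.05 within numbers 1 to 4. Rpl18 gave 0.33 ± 0.25 and 0.60 ± 0.26, and 0.07 and 0.32 within those numbers. Their edgeR adjusted p lay between 0.214 and 0.604.

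Rpl39, a very short protein lining the tunnel exit, was the member that separated the treated libraries from all controls. Its values were 113, 130, 114 and 123 CPM with AAV-miR SOD1, 112, 100, 102, 49.2 and 56.9 CPM with AAV-miR ctrl and 113, 104, 45.6 and 34.9 CPM without injection. The separation rested on less than 1 CPM between the lowest treated library and non-injected replicate 2. The log2 fold changes were 0.51 ± 0.34 and 0.69 ± 0.36 (SE), with edgeR adjusted p of 0.505 and 0.299, and 0.20 and 0.16 within numbers 1 to 4.

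A few large-subunit genes lay lower in the treated group. Rpl28, a subunit found in eukaryotes alone, had 3.47, 4.85, 3.65 and 7.27 CPM with AAV-miR SOD1, 5.17, 7.37, 5.7, 9.39 and 8.16 CPM with AAV-miR ctrl and 5.31, 12.1, 4.62 and 5.22 CPM without injection. The groups overlapped, with log2 fold changes of -0.58 ± 0.35 and -0.50 ± 0.37 (SE, edgeR adjusted p = 0.462 and 0.468). Rpl10, Rpl11, Rpl24 and Rpl36 had log2 fold changes between -0.45 and 0.05, with a smallest edgeR adjusted p of 0.572. Rpl11, which binds Mdm2 when ribosome assembly is disturbed, had -0.19 ± 0.28 (SE) against the non-injected group. The highest unique share among these 4 was 37.8%.

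**Figure D5:**
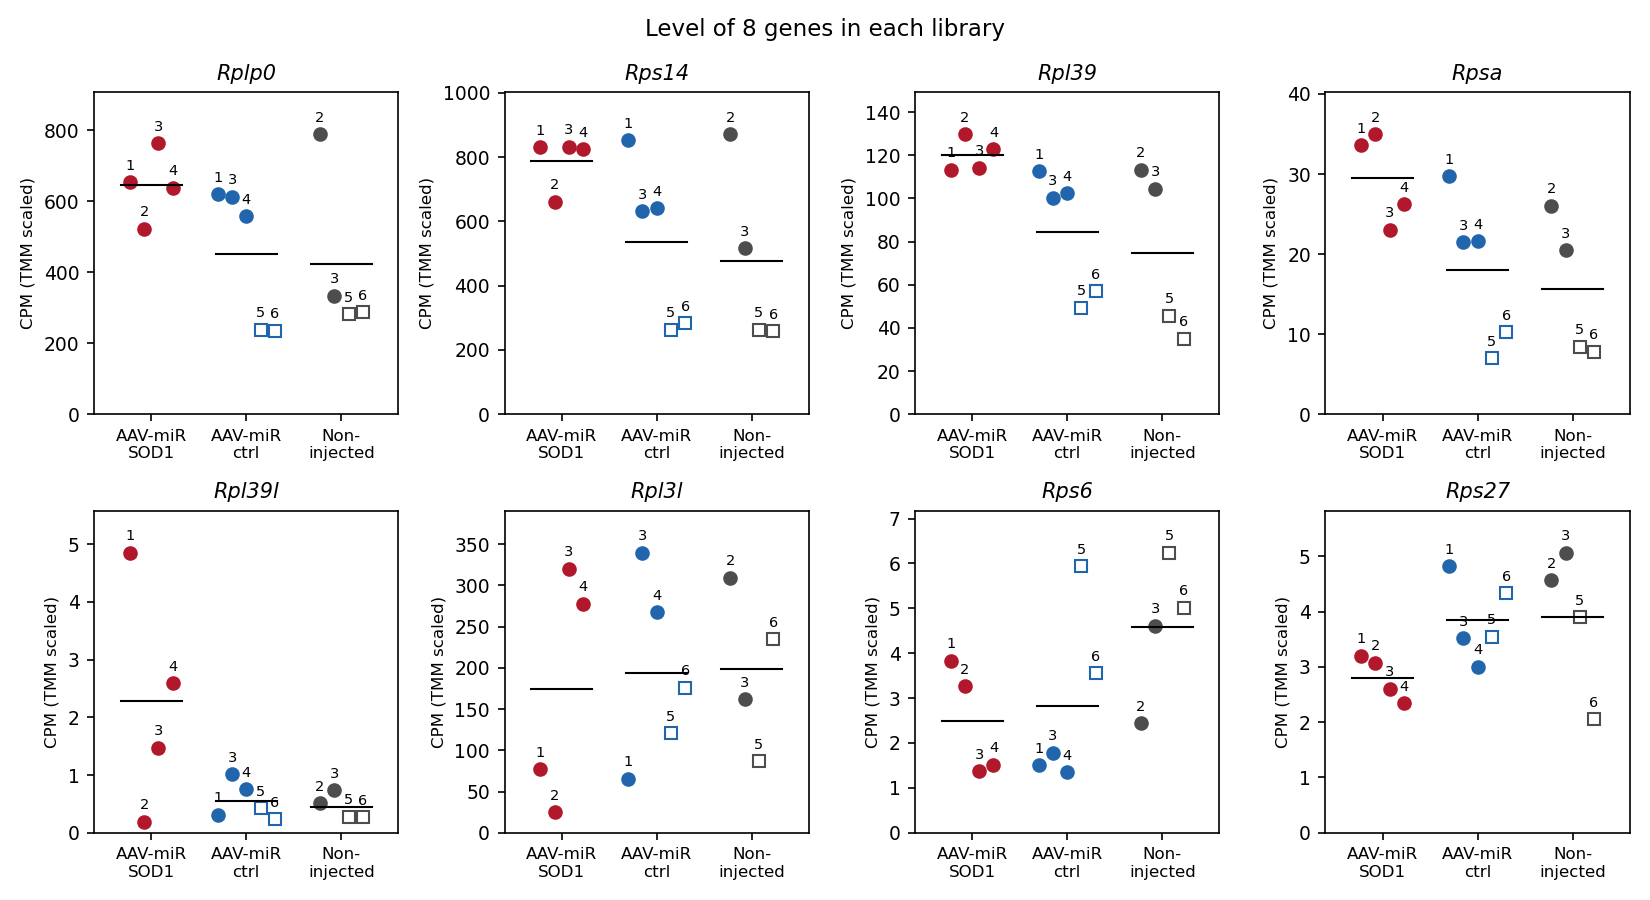
TMM-scaled CPM of 8 members in each library by group, with the replicate number above each point, a bar at the group mean, filled circles for numbers 1 to 4 and open squares for numbers 5 or 6. Rplp0, Rps14, Rpl39 and Rpsa are lowest in the open squares, Rps6 is high in them, and Rpl3l and Rpl39l vary by library.

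In the small subunit, Rps14 was the member with the most counts per length. It had 830, 662, 833 and 824 CPM with AAV-miR SOD1, 852, 632, 641, 264 and 283 CPM with AAV-miR ctrl and 872, 517, 262 and 258 CPM without injection. Its 4 libraries numbered 5 or 6 lay between 258 and 283 CPM, and no other library was under 517. The log2 difference between the numbers was -1.37. Over AAV-miR ctrl the log2 fold change was 0.56 ± 0.41 (SE, edgeR adjusted p = 0.544), and 0.15 within numbers 1 to 4.

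Rps7, a Mdm2-binding subunit, and Rps2, at the entry of the mRNA channel, had the smallest p values of the small subunit against AAV-miR ctrl and against both control groups. Rps7 had 39.7, 39.3, 42.6 and 35.8 CPM with AAV-miR SOD1, 38.5, 29.7, 27.2, 19.1 and 17.8 CPM with AAV-miR ctrl and 34, 30.5, 20.7 and 16.9 CPM without injection. All treated libraries lay above all non-injected ones and overlapped with AAV-miR ctrl replicate 1 alone, and the log2 fold change over both control groups was 0.60 ± 0.23 (SE, edgeR adjusted p = 0.146), or 0.31 within numbers 1 to 4. Rps2 gave 0.71 ± 0.29 in the same comparison (edgeR adjusted p = 0.165), or 0.35 within those numbers. Rps12, known from cell competition in flies, was measured at 0.372 to 1.97 CPM, with a log2 fold change of 0.99 ± 0.44 (SE, edgeR adjusted p = 0.205) and only 16.4% unique windows.

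Rpsa, which doubles as a laminin receptor at the cell surface, spanned 7.02 to 35 CPM. Its libraries numbered 5 or 6 lay at 7.02, 10.3, 8.44 and 7.78 CPM and all others at 20.5 CPM or more, a log2 difference of -1.50. Over AAV-miR ctrl the log2 fold change was 0.71 ± 0.43 (SE, edgeR adjusted p = 0.455). Rps18, the remaining reference gene, had 0.53 ± 0.36 in that comparison (edgeR adjusted p = 0.506) and a log2 difference of -1.19 between the numbers, close to the -1.11 of Rplp0 and beyond the -0.78 of Rpl13a. Rps4x, the X-linked copy of Rps4, had 0.49 ± 0.25 (SE, edgeR adjusted p = 0.375).

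Rps6, the subunit phosphorylated by S6 kinase and a usual readout of mTORC1 activity as a protein, ran against the set. It had 3.83, 3.26, 1.37 and 1.52 CPM with AAV-miR SOD1, 1.5, 1.78, 1.35, 5.94 and 3.55 CPM with AAV-miR ctrl and 2.44, 4.61, 6.24 and 5.01 CPM without injection. Libraries numbered 5 or 6 were high, with a log2 difference of 1.24, the largest positive one of the members. The log2 fold changes were -0.19 ± 0.51 and -0.87 ± 0.53 (SE), with edgeR adjusted p of 0.902 and 0.368, and 0.71 and -0.46 within numbers 1 to 4. Only 15.4% of its windows are unique.

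Among the paralogs, Rpl39l had the largest fold changes of all members. It was measured at 4.85, 0.192, 1.47 and 2.59 CPM with AAV-miR SOD1 (109, 4, 31 and 41 counts), at 0.309, 1.01, 0.75, 0.421 and 0.237 CPM with AAV-miR ctrl and at 0.507, 0.74, 0.275 and 0.268 CPM without injection. Treated replicates 1, 3 and 4 were above all 9 controls, and treated replicate 2 was the lowest of all 13 libraries. The log2 fold change was 2.07 ± 0.73 over AAV-miR ctrl, 2.36 ± 0.80 over the non-injected group and 2.22 ± 0.62 over both (SE), with edgeR adjusted p of 0.277, 0.147 and 0.0972. Without treated replicate 1 these log2 fold changes dropped to 1.38, 1.67 and 1.52, with edgeR adjusted p of 0.732, 0.384 and 0.392. Within numbers 1 to 4 the first and second values were 1.73 and 1.88. At 0.239 to 6.03 CPM per kilobase it remained far below Rpl39, at 57.0 to 212.

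Rpl3l, the paralog that replaces Rpl3 in heart and skeletal muscle, varied 13.6-fold between libraries and not by group. It measured 76.9, 25, 320 and 277 CPM with AAV-miR SOD1, 65.6, 340, 267, 121 and 176 CPM with AAV-miR ctrl and 309, 162, 86.4 and 234 CPM without injection. Its log2 fold changes were -0.15 ± 0.63 and -0.18 ± 0.67 (SE, edgeR adjusted p = 0.94 and 0.904). Per kilobase it averaged 138 CPM against 17.8 CPM for Rpl3, although only 14.4% of the windows of Rpl3 are unique.

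Skeletal muscle genes moved with Rpl3l. The 8 genes Acta1, Ckm, Mb, Tnnt3, Tnni2, Atp2a1, Myh4 and Ttn, chosen after the values of Rpl3l had been seen, encode proteins of the muscle contractile and energy apparatus. Together they took 2.57, 0.936, 9.62 and 7.58% of the gene counts in AAV-miR SOD1 replicates 1 to 4. They took 2.27, 10.7, 8.06, 4.68 and 6.80% in AAV-miR ctrl replicates 1, 3, 4, 5 and 6, and 8.98, 5.21, 3.37 and 7.96% in non-injected replicates 2, 3, 5 and 6. Sorted by Rpl3l and by the summed CPM of these genes, the 13 libraries came in the same order but for ranks 8 and 10, which were exchanged. AAV-miR SOD1 replicate 2 was lowest and AAV-miR ctrl replicate 3 highest by both measures. None of the 8 genes had an unadjusted p under 0.05 in any of the 4 comparisons, and the part of muscle RNA in the levels of the other members was not tested.

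The remaining paralog pairs moved with the set or stayed apart from it. Rpl22, which also binds a small RNA of Epstein-Barr virus, had 138, 149, 142 and 132 CPM with AAV-miR SOD1, 143, 110, 100, 50.6 and 59.2 CPM with AAV-miR ctrl and 132, 82.9, 51.4 and 48 CPM without injection, a log2 fold change of 0.84 ± 0.35 over the non-injected group (SE, edgeR adjusted p = 0.201). Its paralog Rpl22l1 gave 0.05 ± 0.30 there (edgeR adjusted p = 0.947), and -0.40 within numbers 1 to 4. The difference between the pair was not tested. Rpl7 and Rpl7l1 had 0.44 ± 0.25 and 0.32 ± 0.22, and Rpl36a and Rpl36al 0.32 ± 0.26 and 0.19 ± 0.22 in the same comparison. Rpl7l1 differed from the set between the numbers, with a log2 difference of -0.06 against -0.64 for Rpl7. Rps27l had 223, 196, 313 and 271 CPM with AAV-miR SOD1, 224, 268, 246, 126 and 137 CPM with AAV-miR ctrl and 300, 185, 119 and 127 CPM without injection, and Rps27, at 2.06 to 5.07 CPM, had log2 fold changes of -0.45 ± 0.32 and -0.47 ± 0.33 (SE, edgeR adjusted p = 0.528 and 0.447). Rps27rt was the member with the largest negative difference between the numbers, -1.60, at 0.179 to 1.29 CPM.

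Other genes of the translation machinery were described from lists whose members were chosen by function. Of 20 further genes whose mRNAs carry the terminal tract, mainly elongation and initiation factors, 14 lay higher with AAV-miR SOD1 than with AAV-miR ctrl (median log2 fold change 0.12). None passed after adjustment, and 2 had an unadjusted p under 0.05, both higher (5.99% of all genes were higher). Genes of that list were also low in the controls numbered 5 or 6, with a median log2 difference of -0.35. In 10 of the 20 genes all 4 libraries lay below the 5 controls numbered 1 to 4 (3.83% of all genes). Pabpc1, the poly(A)-binding protein, had a log2 fold change of 1.10 ± 0.29 over both control groups (SE, edgeR adjusted p = 0.096). Eef1a2, the elongation factor of mature neurons and muscle, had -0.91 ± 0.20 against the non-injected group (SE, edgeR adjusted p = 0.14) and -0.15 ± 0.19 against AAV-miR ctrl (0.752). AAV-miR ctrl itself had -0.76 ± 0.19 against the non-injected group (edgeR adjusted p = 1.00).

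Rack1, a scaffold of the small subunit outside the naming rule, resembled the members. It had 618, 595, 542 and 559 CPM with AAV-miR SOD1, 631, 441, 394, 245 and 259 CPM with AAV-miR ctrl and 513, 331, 280 and 205 CPM without injection, a log2 difference of -0.88 between the numbers. Fau, whose ribosomal protein is made as a fusion with a ubiquitin-like protein, had a difference of 0.07. Neither passed after adjustment.

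Ribosome assembly and its control showed smaller medians. Over AAV-miR ctrl the median log2 fold change was -0.09 for 32 ribosome biogenesis genes, -0.10 for 12 genes of RNA polymerase I and -0.04 for 16 genes of mTORC1 and translation control. In these lists 3, 0 and 0 genes had an unadjusted p under 0.05 (14.5% of all genes), and 0 passed after adjustment in each. The 3 biogenesis genes were all higher, as 5.99% of all genes were. The biogenesis genes with the smallest p against both control groups were the helicase Ddx21 (0.64 ± 0.16, SE) and the pseudouridine synthase Dkc1 (0.50 ± 0.14), with edgeR adjusted p of 0.096 and 0.101. Between the numbers, these lists had median log2 differences of 0.17, 0.01 and 0.10. Mitochondrial ribosomal proteins, which serve the separate ribosome of the organelle, lay lower: of 77 tested, 4 had an unadjusted p under 0.05 against AAV-miR ctrl and 11 against the non-injected group, all lower (8.54 and 11.5% of all genes), with medians of -0.17 and -0.26, and 0 passed after adjustment. Their log2 difference between the numbers was 0.04.

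Markers of several cell types moved in the same comparisons. Of all genes, 5.99% were higher and 8.54% lower over AAV-miR ctrl at an unadjusted p under 0.05. Over the non-injected group these shares were 9.36 and 11.5%. The 8 erythroid markers had a median log2 fold change of 1.41 over AAV-miR ctrl and 1.77 over the non-injected group, all 8 at an unadjusted p under 0.05 in each, and summed to 21081 to 47646 CPM with AAV-miR SOD1, 3584 to 28301 CPM with AAV-miR ctrl and 5591 to 20351 CPM without injection. The 8 proliferation markers had 1.07 and 1.19, again all 8 higher before adjustment, and summed to 540 to 1242, 290 to 753 and 276 to 573 CPM. The 9 motoneuron markers had -0.91 and -1.09, with 6 and 9 lower before adjustment, and summed to 5023 to 8026, 7049 to 16545 and 7090 to 17247 CPM. The 9 neutrophil granule markers were all higher, with medians of 0.84 and 1.05, of which 1 and 5 had an unadjusted p under 0.05. They summed to 10224 to 14996 CPM in the controls numbered 5 or 6 and to at least 18950 CPM in every library numbered 1 to 4, so that the sums did not overlap. Gene by gene, 3 of the 9 lay lower in all 4 controls numbered 5 or 6 than in the 5 controls numbered 1 to 4 (3.83% of all genes), and 0 lay higher (3.26%). B lineage markers had medians of 0.41 and 1.09, with 0 and 5 of 8 higher before adjustment, and microglia markers 0.34 and 0.88, with 1 and 3 of 6. Astrocyte markers had medians of -0.50 and -0.01, with 1 of 6 lower before adjustment in each comparison. Oligodendrocyte markers had -0.70 and -0.33 and endothelial markers 0.32 and 0.12, with 0 at an unadjusted p under 0.05. No marker of these lists was at 0 in any library, and none passed after adjustment. Between the controls numbered 5 or 6 and those numbered 1 to 4, the erythroid median was -0.79, the neutrophil granule median -0.61, the proliferation median -0.08 and the motoneuron median 0.65. Over the same split the oligodendrocyte median was -1.04, the astrocyte median -0.62, the microglia median -0.27, the B lineage median -0.25 and the endothelial median 0.32. Ribosomal protein genes are expressed in all of these cells, and the part of each cell type in their levels was not tested.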

How the data were processed

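The authors deposited raw read counts per gene, 1 table per library with 48709 gene rows. Per the submitters' processing notes, reads were trimmed with cutadapt 1.8 and STAR 2.5.2b, HTSeq 0.6.1 and the build GRCm38 were used; strand settings are not given in the sources used here. Members were matched by Ensembl identifier to GENCODE M21.
Libraries were grouped by title. Counts were tested with edgeR 4.0.16 (R 4.3.3; TMM scaling, filterByExpr with a minimum of 10 and total of 15, quasi-likelihood test, 3 groups fitted together) on 17403 genes, with Benjamini-Hochberg adjustment over all of them and a threshold of 0.05. DESeq2 1.42.0, limma-voom (limma 3.58.1), other scalings and filters, single groups, the replicate block, libraries numbered 1 to 4, the header exchange and leaving out each library were the alternatives. Levels are TMM-scaled CPM. The SE of a log2 fold change is its size divided by the square root of the F statistic of edgeR's quasi-likelihood test. Without molecular identifiers, the counts bound counting error only. The p-values rest on the spread between libraries of a group. With a single mouse per library, mouse, capture and amplification cannot be told apart in that spread. In the control groups the spread also holds the difference between the library numbers.
The members, lists, splits and alternatives were chosen with earlier results of these data known. Genes named were the 4 smallest p in each direction (2 between the control groups), paralog pairs, Rplp0, Rpl13a, Rps18, Rps6, Rpsa and the 3 highest per kilobase; 1 member and 1 other listed gene are counted in the totals but not reported here by name. Others (Rpl15, Rpl35, Rpl38, Rps9, Rps10, Rps15a, Rps19, Rps28, Rpl5, Rpl8 and the muscle genes) were named after their values were seen.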

Additional observations from a re-analysis of the deposited data

Results flagged for a closer look

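In each group of 4 or 5 libraries, values such as the log2 CPM of a named member were checked for a library standing apart. Its gap to its nearest neighbour had to take most of the group's range (Dixon's criterion). Of 108 groups of values examined, 8 stood out, where chance flags about 1 in 20, or 5.4. All 8 were log2 CPM of a named member. In the AAV-miR SOD1 group, replicate 2 had 2.15 for Rpl10 (next 1.24) and 9.37 for Rps14 (next 9.69), replicate 1 had 2.12 for Rpl11 (next 2.51), and replicate 3 had 9.33 for Rpl4 (next 9.50) and 4.30 for Rps4x (next 4.56). AAV-miR ctrl replicate 1 had 6.57 for Rpl7l1 (next 6.14). In the non-injected group, replicate 3 had 3.60 for Rpl28 (next 2.43) and replicate 2 had 9.62 for Rplp0 (next 8.38). Non-injected replicate 3 is a library whose header names another group.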

How the results depend on the processing

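No member passed the adjusted threshold under the alternatives run, except the 7 that limma-voom called against both control groups (Rpl13, Rpl22, Rpl4 and Rps7 among the named genes). Counts of members at an unadjusted p under 0.05 moved more. Over AAV-miR ctrl they were 2 as reported, 1 with upper quartile scaling and with a filter of 1 CPM, 6 with DESeq2, 19 with limma-voom, 7 with only the groups compared and with the header exchange, and 0 in the libraries numbered 1 to 4. Over the non-injected group they were 11 as reported, 20 without a filter, 18 with DESeq2, 51 with limma-voom, 19 with only the groups compared, 4 with the header exchange and 0 in the libraries numbered 1 to 4. Over both control groups they were 15 as reported, 27 without a filter, 49 with limma-voom and 1 in the libraries numbered 1 to 4. Between the control groups limma-voom gave 1 and the others 0. Leaving out each library in turn gave 0 to 17, 2 to 47, 4 to 48 and, between the control groups, 0 to 1; the 17 came without AAV-miR ctrl replicate 1, and the 47 and 48 without non-injected replicate 2. The third count was 33 without AAV-miR ctrl replicate 1, 30 without replicate 3 and 4 to 8 without AAV-miR SOD1 replicate 1, 2 or 4, AAV-miR ctrl replicate 6 or non-injected replicate 5 or 6; the second was 2 to 4 without those AAV-miR SOD1 or non-injected libraries. The first was 8 without non-injected replicate 2, 4 without AAV-miR ctrl replicate 3 and 0 or 1 without AAV-miR SOD1 replicate 1 or 2 or AAV-miR ctrl replicate 4, 5 or 6. Fitting the replicate block gave 0, 0 and 0 for the 3 comparisons of AAV-miR SOD1, with medians of 0.06, 0.16 and 0.12. The 8 pairs of same-numbered libraries from different groups had correlations of -0.19 to 0.24, within the -0.38 to 0.34 of the 48 differently numbered pairs. So few pairs cannot decide whether the numbers pair the samples, and the main fit took no pairing. The median between the control groups turned to -0.033 in the libraries numbered 1 to 4, and to -0.029 without AAV-miR ctrl replicate 1 and -0.059 without non-injected replicate 6, the lowest of a range up to 0.29. Leaving out 1 library gave medians of 0.26 to 0.48 over AAV-miR ctrl, 0.28 to 0.68 over the non-injected group and 0.31 to 0.58 over both; these kept their sign. Of 3131 values of named genes under alternatives, 165 changed sign, 112 of them between the control groups. The cause of these shifts was not tested. Low counts limit Rpl10l, Rps27rt, Rpl24, Rpl39l and Rps12.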
